A study of Mus musculus with 10 samples.

Results

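The genes described here are 38 genes of fatty acid oxidation, ketone body metabolism and PPARA target expression. The list gives them by name and was drawn up with earlier results of these data known. These genes were 38 of the 39056 genes in the deposited count table and 38 of the 15811 genes that passed the filter on low counts and were tested. All 38 listed genes passed that filter. They were measured by 3' end RNA sequencing of liver or liver tumour from male mice of strain C57BL/6, which were 11 months old, in a study of MLK3, a kinase encoded by Map3k11. KO tumours (3 libraries) came from MLK3-KO mice and WT tumours (3 libraries) from wild-type mice. Both had been injected intraperitoneally with the carcinogen DEN (diethylnitrosamine), 5 µg/g, when 2 weeks old. From 1 week later they drank the tumour promoter PB (phenobarbital) at 0.05%. KO livers (2 libraries) and WT livers (2 libraries) came from mice of the same genotypes that drank plain water. Treated samples are tumour tissue by their source label but treated liver in the extraction protocol. A difference between tumour and liver therefore cannot be told apart from an effect of DEN and PB on liver, and in bulk tissue fewer cells of a type cannot be told apart from less RNA per cell.

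Hepatocytes burn fatty acids in mitochondria, which take up long chains as carnitine esters, and shorten very long and branched chains in peroxisomes. Surplus acetyl-CoA leaves the liver as ketone bodies. PPARA is a nuclear receptor that binds fatty acids and, as a dimer with RXR, turns on many of these genes in fasting or after fibrate drugs.

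PPARA and RXR bind a direct repeat of a hexamer with 1 base between the copies, so the promoters of the 38 genes were searched for GGNCANAGGNCA and for the hexamer AGGTCA alone, on both strands. RefSeq windows of 300 bases (250 before to 50 after each gene's start, GRCm38.p6) were available for 33 of the 38 genes. Those without a window were Amacr, Vnn1, Decr1, Hsd17b4 and Acaa2, all of which passed the test in at least 1 comparison below. The direct repeat was in the windows of Acox2 and Acot4, which is 2 of 33 (6.06%), against 263 of all 32851 windows (0.801%). The hexamer was in 7 of 33 (21.2%), against 5340 of 32851 (16.3%). The 33 are genes, each counted if any of its windows held a match, whereas the 32851 are single windows. A gene with several windows had more chances of a match, so these shares are not like for like. Of 14 genes with a window that passed the test in at least 1 comparison below, 0 held the direct repeat and 2 held the hexamer, namely Cpt1a and Cat. In Acot4 the hexamer match lies inside the direct repeat match. The 4 stretches below are those of Cpt1a and Cat, whose levels moved in opposite directions, and the direct repeats of Acox2 and Acot4. Capitals mark the match, which is the reverse complement of the motif in Cpt1a and Acot4. Distances are from RefSeq starts. RefSeq gives Acox2 a further start, from which the same match lies 236 bases before. In GENCODE M21 Cpt1a begins at position 3322334 of chromosome 19 and Acox2 (minus strand) at 8259353 of chromosome 14, so by that annotation both printed stretches lie inside the gene. A match describes letters and is not evidence of binding.
Cat, chr2:103485322-103485387, minus strand, match 204 bases before the start: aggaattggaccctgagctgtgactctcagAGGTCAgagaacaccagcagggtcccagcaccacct
Cpt1a, chr19:3323177-3323242, plus strand, match 94 bases before the start: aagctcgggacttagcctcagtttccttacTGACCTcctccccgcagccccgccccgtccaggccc
Acox2, chr14:8259034-8259105, minus strand, match 56 bases before the outermost RefSeq start: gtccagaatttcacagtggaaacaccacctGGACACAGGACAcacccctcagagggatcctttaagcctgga
Acot4, chr12:84038336-84038378, plus strand, match 13 bases before the start: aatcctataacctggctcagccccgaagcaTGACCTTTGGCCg

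Library totals ran between 12408749 and 18081487 counts, so that 3 counts, used as the floor of detection, equalled 0.156 to 0.231 CPM (counts scaled to a common library size, with TMM factors that align libraries). The targeted gene, Map3k11, was read in every library, and a 3' tag checks nothing about a deletion elsewhere in a gene. Its level was 5.84 to 10.3 CPM in KO tumours, against 9.54 to 14.3 CPM in WT tumours, and it was not called (log2 fold change -0.46, SE 0.47, edgeR adjusted p = 0.77). In KO livers it was 5.38 and 5.81 CPM, against 7.92 and 14.9 CPM in WT livers (-1.03, SE 0.58, adjusted p = 0.72). KO tumour 2 stood apart from the other tumours. Afp, a fetal liver protein made by many liver tumours, had 5791, 55 and 2337 counts in KO tumours 1 to 3, against 2000 to 8684 counts in WT tumours and 4 to 111 counts in all livers. Gpc3, a surface proteoglycan of liver tumours, had 608, 7 and 678 counts in KO tumours 1 to 3, against 5444 to 8469 counts in WT tumours and 0 to 70 counts in all livers. Calls between the tumours among the oxidation genes and related pathway lists are therefore also given without KO tumour 2.

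In WT mice, tumours held less mRNA than liver for peroxisomal and mitochondrial oxidation genes, and more for a ketone body enzyme and a pantetheinase. Of the 38 genes, 16 fell and 2 rose in WT tumours against WT livers at an adjusted p under 0.05 (edgeR quasi-likelihood test). Of all 15811 genes, 4.7% were called lower and 3.64% higher. The median log2 fold change was -0.70 over the 38 genes and 0.09 over all genes. The libraries of the groups did not overlap in 23 of the 38 genes on the lower side, where 17.6% of all genes did so, and in 3 on the higher side, against 19.6%. Scaled by library totals alone, which shifted the median of all genes by 0.27, 8 genes were called lower and 3 higher, and the share of higher calls among all called genes was 65.0%, not 43.6%. The count of lower calls was 10 without WT liver 1, 7 without WT liver 2 and 10 without WT tumour 1, and the count of higher calls was 0 without WT liver 1 and 1 without WT liver 2 or WT tumour 2.

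Between the tumours, the genotypes differed the other way. Of the 38 genes, 7 rose in KO tumours against WT tumours (Cpt2, Acot1, Etfdh, Decr1, Pex11a, Crot and Cat) and 2 fell (Cpt1a and Bdh1), by edgeR at an adjusted p under 0.05. Of all genes, 3.25% were called higher and 1.27% lower. The median log2 fold change was 0.56 over the 38 genes and -0.03 over all genes. The groups did not overlap in 17 of the 38 genes on the higher side, where 12.2% of all genes did so, and in 3 on the lower side, against 10.9%. This comparison and that of WT tumours with WT livers share the WT tumours, so an unusual value in a WT tumour moves both. Without KO tumour 2, 4 genes were called higher (Cpt2, Pex11a, Crot and Cat) and the same 2 lower, with a median of 0.41 and 2.2% and 0.728% of all genes called higher and lower. In GENCODE M21 (GRCm38) these 6 genes lie at chr4:107903981-107923610 (Cpt2), chr7:79735957-79743131 (Pex11a), chr5:8966033-8997324 (Crot), chr2:103453849-103485160 (Cat), chr19:3322334-3385733 (Cpt1a) and chr16:31422280-31458901 (Bdh1). The count of higher calls was also 4 without KO tumour 3, and 1 gene was called lower without WT tumour 1, 2 or 3, KO tumour 1 or KO tumour 3.

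**Figure D1:**
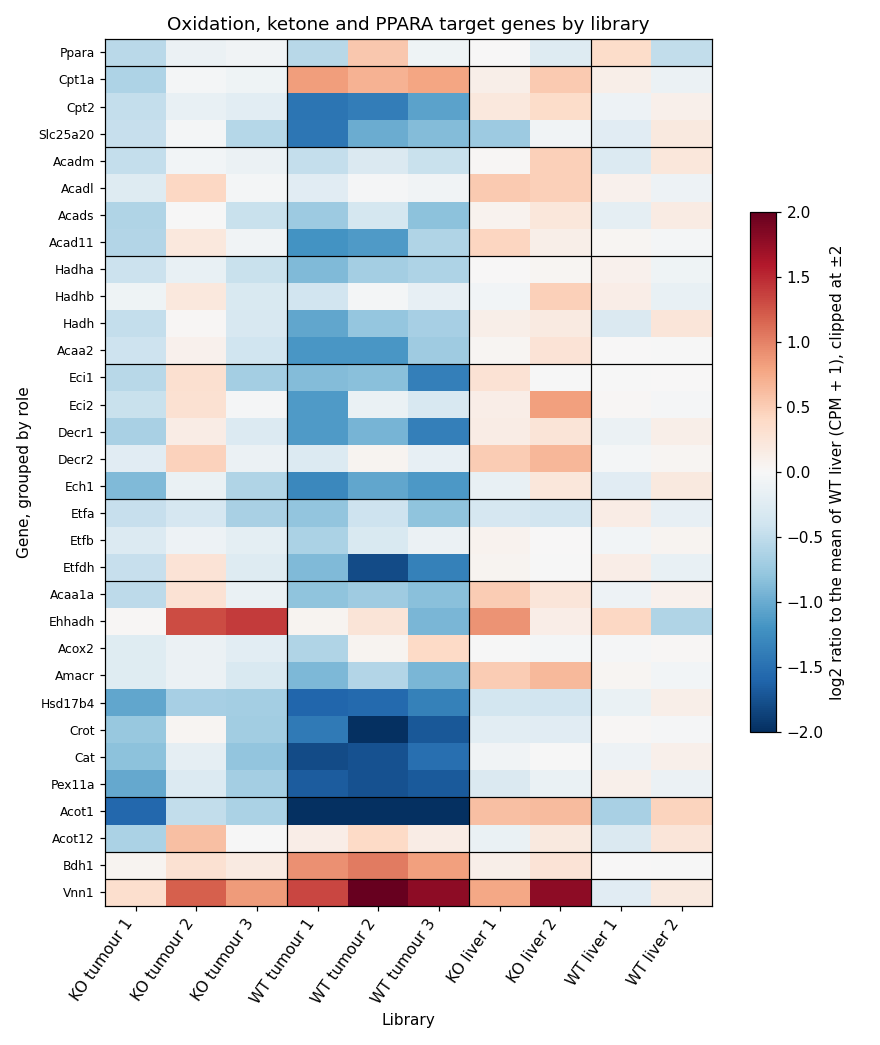
Colour gives the log2 ratio of each library to the mean of the WT livers (CPM + 1, clipped at ±2) for the 32 genes with a mean of at least 10 CPM, grouped by role, with libraries in columns. The median ratio of these genes was -0.48, 0.01 and -0.26 in KO tumours 1 to 3, and -0.87, -0.63 and -0.76 in WT tumours 1 to 3.

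The 32 genes with a mean of at least 10 CPM sat at a different level in each KO tumour, as the colour map of all libraries shows. KO tumour 2 was the highest of the 3 KO tumours in 30 of the 32 genes, KO tumour 3 in 2 and KO tumour 1 in 0. Over all 7636 genes at that level, KO tumours 1 to 3 were the highest in 31.2%, 41.8% and 27%. Among the WT tumours, libraries 1 to 3 were the highest in 4, 17 and 11 of the 32 genes, and in 32%, 35.7% and 32.3% of the genes at that level. KO livers 1 and 2 had medians of 0.07 and 0.21 against the WT liver mean. The other 6 genes (Acadvl, Acaa1b, Acot2, Acot3, Acot4 and Pdk4) averaged under 10 CPM and were called in no comparison.

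Among the role groups of 3 or more genes, peroxisomal genes had the largest median changes in WT tumours against WT livers and in KO tumours against WT tumours. Of 9, 5 fell in WT tumours against WT livers and 3 rose in KO tumours against WT tumours, with median log2 fold changes of -1.50 and 1.07. Among all genes, 4.7% were called lower in the first comparison and 3.25% higher in the second, with medians of 0.09 and -0.03. Cat encodes catalase, which breaks down the hydrogen peroxide made by peroxisomal oxidases. It had 2080, 3247 and 2133 CPM in KO tumours, 1069, 1097 and 1296 CPM in WT tumours, 3515 and 3667 CPM in KO livers, and 3427 and 3938 CPM in WT livers. Every KO tumour was above every WT tumour, and every tumour of either genotype was below every liver. In edgeR, Cat fell by 1.67 on the log2 scale in WT tumours against WT livers (SE 0.23, adjusted p = 0.00031) and rose by 1.11 in KO tumours against WT tumours (SE 0.21, adjusted p = 0.0058). Without KO tumour 2 the KO tumours were still higher, by 0.87 (SE 0.18, edgeR adjusted p = 0.016).

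Crot encodes carnitine octanoyltransferase, which readies shortened chains for export from peroxisomes. Its level was 247.5, 429.3 and 258.9 CPM in KO tumours, 157.1, 99.9 and 128.9 CPM in WT tumours, 360.5 and 357.4 CPM in KO livers, and 424.7 and 412.8 CPM in WT livers. KO tumour 2 lay above all livers, and the other KO tumours lay between the WT tumours and the livers. Crot fell by 1.70 in WT tumours against WT livers (SE 0.26, edgeR adjusted p = 0.00072). It rose by 1.28 in KO tumours against WT tumours (SE 0.24, edgeR adjusted p = 0.0053), and by 0.98 without KO tumour 2 (adjusted p = 0.019).

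Pex11a, which promotes peroxisome division, had 196.2, 330.3 and 247.5 CPM in KO tumours, 125.3, 118.9 and 123.8 CPM in WT tumours, 324.7 and 362.7 CPM in KO livers, and 428.0 and 368.6 CPM in WT livers. The WT tumours lay close together and below every other library. Pex11a fell by 1.70 in WT tumours against WT livers (SE 0.23, edgeR adjusted p = 0.00025). In KO tumours against WT tumours it rose by 1.07 (SE 0.21, edgeR adjusted p = 0.0068), and by 0.86 without KO tumour 2 (adjusted p = 0.025).

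Hsd17b4, the bifunctional enzyme that acts on branched chains and bile acid precursors, had 95.6, 124.6 and 123.4 CPM in KO tumours, 65.2, 67.1 and 77.2 CPM in WT tumours, 153.4 and 151.4 CPM in KO livers, and 180.4 and 215.9 CPM in WT livers. The 4 groups did not overlap. The log2 change was -1.50 in WT tumours against WT livers (SE 0.21, edgeR adjusted p = 0.00034) and 0.71 in KO tumours against WT tumours, which missed the threshold (SE 0.19, adjusted p = 0.051). Amacr, the racemase that prepares branched chains for oxidation, had 140.7, 153.7 and 134.9 CPM in KO tumours, 88.6, 110.8 and 87.6 CPM in WT tumours, 236.3 and 260.9 CPM in KO livers, and 171.9 and 161.1 CPM in WT livers. Amacr was lower in tumours than in livers of the same genotype by like amounts, -0.80 in KO mice (SE 0.21, edgeR adjusted p = 0.17) and -0.80 in WT mice (SE 0.21, adjusted p = 0.024). The WT call was lost with library totals alone and with a model term for the replicate number. It was also lost without WT liver 1, WT liver 2, WT tumour 1 or WT tumour 3.

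The other 4 peroxisomal genes were called in no comparison. Acaa1a, a peroxisomal thiolase, averaged 199 ± 56.3 CPM in KO tumours, 122 ± 5.59 CPM in WT tumours (SD, n = 3 each), 275 ± 34.8 CPM in KO livers and 211 ± 19.7 CPM in WT livers (SD, n = 2 each). Its log2 change was -0.79 in WT tumours against WT livers (edgeR adjusted p = 0.056) and 0.70 in KO tumours against WT tumours (adjusted p = 0.094). Ehhadh, the multifunctional enzyme of straight chains, had 11.3, 28.9 and 31.1 CPM in KO tumours, against 11.6, 13.5 and 5.45 CPM in WT tumours, and the groups overlapped (log2 change 1.22, edgeR adjusted p = 0.23). Acox2, the oxidase of branched chains and bile acid precursors whose direct repeat is printed above, had log2 changes between -0.19 and 0.00 in the 4 pairwise comparisons.

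**Figure D2:**
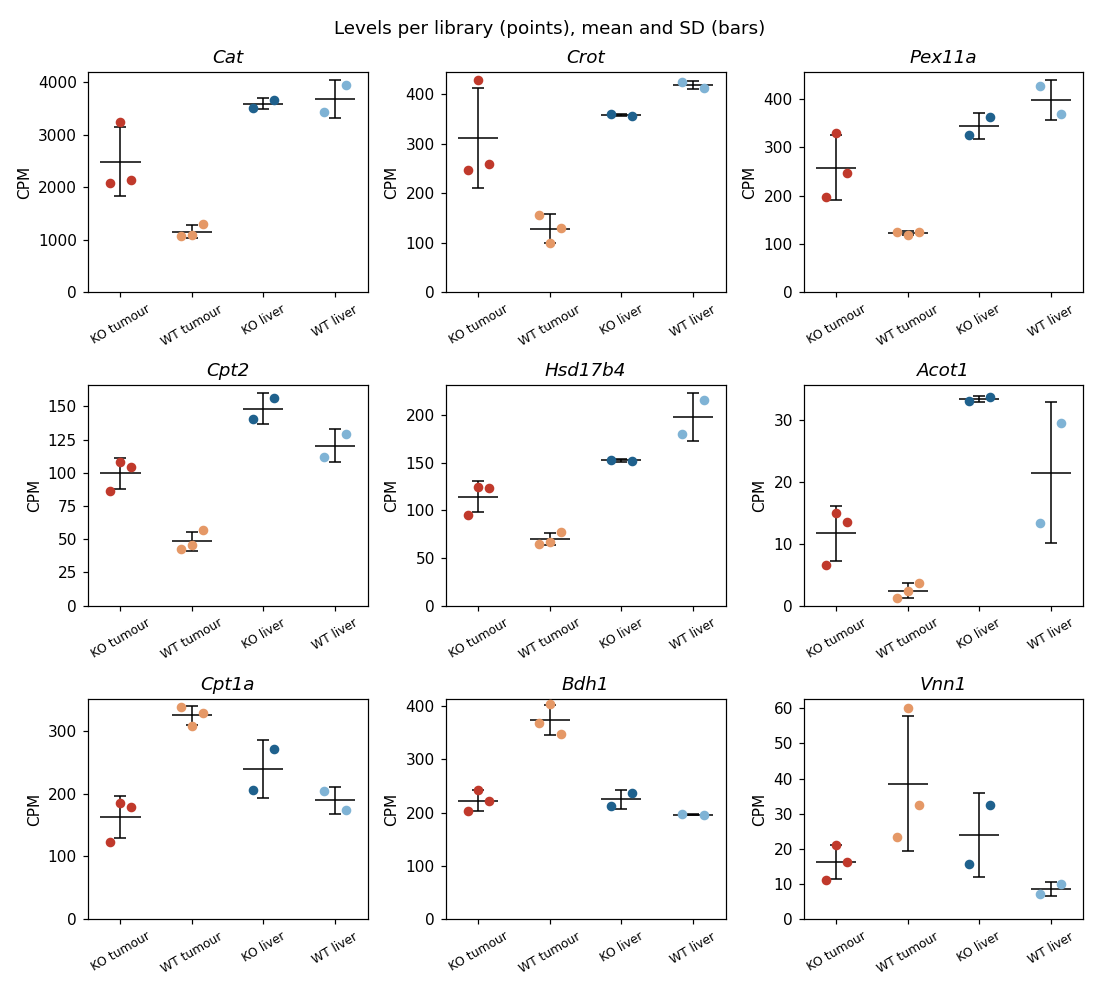
Points are CPM per library for 9 of the 19 genes called in at least 1 comparison, with the mean (line) and SD (bars) of KO tumours, WT tumours, KO livers and WT livers from left to right. Cat, Crot, Pex11a, Cpt2, Hsd17b4 and Acot1 were lowest in the WT tumours, and Cpt1a and Bdh1 were highest there.

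The carnitine shuttle moved in both directions. Cpt1a encodes the outer membrane carnitine palmitoyltransferase that controls entry of long chains into liver mitochondria. It had 123.6, 184.3 and 179.2 CPM in KO tumours, 337.2, 307.5 and 328.9 CPM in WT tumours, 205.8 and 271.6 CPM in KO livers, and 204.5 and 174.2 CPM in WT livers. All WT tumours were above all other libraries. Cpt1a fell by 1.00 in KO tumours against WT tumours (SE 0.21, edgeR adjusted p = 0.011), and by 1.10 without KO tumour 2 (adjusted p = 0.015). The difference of WT tumours from WT livers, 0.78, missed the threshold (SE 0.24, edgeR adjusted p = 0.057), and passed it with library totals alone (1.05, adjusted p = 0.011), no filter (adjusted p = 0.043), DESeq2 (0.0064), the compared groups only (0.048), and without KO tumour 1 (0.039) or KO tumour 2 (0.042).

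Cpt2, the inner membrane enzyme that releases the chain as acyl-CoA inside mitochondria, had the opposite pattern. Its level was 86.1, 108.3 and 104.5 CPM in KO tumours, 43.0, 45.4 and 56.8 CPM in WT tumours, 140.2 and 156.5 CPM in KO livers, and 112.0 and 129.1 CPM in WT livers. Every WT tumour was below every KO tumour, and every KO tumour below every liver. Cpt2 fell by 1.32 in WT tumours against WT livers (SE 0.22, edgeR adjusted p = 0.0013) and rose by 1.04 in KO tumours against WT tumours (SE 0.20, adjusted p = 0.0057). Slc25a20, the carrier that exchanges acylcarnitine for carnitine, had 64.6, 87.2 and 59.8 CPM in KO tumours, 32.4, 44.3 and 48.8 CPM in WT tumours, 53.5 and 85.6 CPM in KO livers, and 76.7 and 102.4 CPM in WT livers. It fell by 1.10 in WT tumours against WT livers (SE 0.28, edgeR adjusted p = 0.024). That call was lost with library totals alone and without WT liver 2 or WT tumour 1. The difference of Slc25a20 between KO and WT tumours was 0.75 (edgeR adjusted p = 0.14).

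Acyl-CoA dehydrogenases take the first electrons from the chain. Of 5, edgeR called 1 lower in WT tumours against WT livers, beside 4.7% of all genes, and none between KO and WT tumours. Between the tumours 1 was higher at an unadjusted p under 0.05, beside 1430 of all 15811 genes. DESeq2 called 1 higher there, Acad11, beside 823 of all genes. Acad11, which acts on long chains and 4-hydroxy acids, had 82.0, 142.6 and 117.8 CPM in KO tumours, 53.6, 55.8 and 80.9 CPM in WT tumours, 165.8 and 134.0 CPM in KO livers, and 127.2 and 120.0 CPM in WT livers. It fell by 0.96 in WT tumours against WT livers (SE 0.26, edgeR adjusted p = 0.034). The call was lost with library totals alone and without either WT liver, WT tumour 1, WT tumour 2 or KO tumour 3. Acadm, Acads and Acadl, the medium, short and long chain enzymes, had log2 changes of -0.40, -0.62 and -0.10 in WT tumours against WT livers, with edgeR adjusted p of 0.35, 0.14 and 0.87. Acadvl, the very long chain enzyme, was read at 0.0521 to 4.56 CPM in single libraries, and its annotated 3' end overlaps Dvl2 on the opposite strand.

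Of the 4 mitochondrial genes for the later steps of the cycle, 3 fell in WT tumours against WT livers, where 4.7% of all genes were called lower. Acaa2, the last thiolase, had 542.2, 767.6 and 547.4 CPM in KO tumours, 321.9, 322.3 and 441.1 CPM in WT tumours, 743.9 and 881.2 CPM in KO livers, and 727.8 and 723.5 CPM in WT livers. All WT tumours were below all other libraries. Acaa2 fell by 1.00 in WT tumours against WT livers (SE 0.23, edgeR adjusted p = 0.013). That call was lost with library totals alone and without either WT liver. The difference of Acaa2 between KO and WT tumours, 0.77, missed the threshold (SE 0.21, edgeR adjusted p = 0.051).

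Hadh, the short chain hydroxyacyl-CoA dehydrogenase, had 292.5, 415.1 and 325.6 CPM in KO tumours, 199.1, 238.5 and 258.2 CPM in WT tumours, 443.4 and 462.0 CPM in KO livers, and 335.2 and 482.6 CPM in WT livers. Hadha, the alpha subunit of the mitochondrial trifunctional protein, had 167.9, 203.8 and 165.8 CPM in KO tumours, 122.4, 140.4 and 146.7 CPM in WT tumours, 227.8 and 231.6 CPM in KO livers, and 239.2 and 213.5 CPM in WT livers. They fell by 0.82 (SE 0.23, adjusted p = 0.042) and 0.73 (SE 0.20, adjusted p = 0.038) in edgeR in WT tumours against WT livers, and these were among the least stable calls. Hadh lost its call under 10 of 17 alternatives and Hadha under 12 of 17, including, for both, leaving out WT liver 2, either KO liver, any WT tumour or KO tumour 3, and for Hadha also WT liver 1. Hadhb, the beta subunit, had a log2 change of -0.19 in the same comparison (adjusted p = 0.76). The 3' end of Hadha overlaps Garem2 on the opposite strand.

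Enzymes of unsaturated chains followed the same direction, with 3 of 5 lower in WT tumours than in WT livers and 1 higher in KO than in WT tumours. Among all genes, 4.7% were called lower in the first comparison and 3.25% higher in the second. Decr1, the mitochondrial dienoyl-CoA reductase, had 102.9, 177.8 and 133.5 CPM in KO tumours, 72.7, 84.5 and 62.1 CPM in WT tumours, 179.3 and 191.8 CPM in KO livers, and 148.2 and 174.0 CPM in WT livers. It fell by 1.14 in WT tumours against WT livers (SE 0.25, edgeR adjusted p = 0.0085), a call lost without WT liver 2 (adjusted p = 0.067). It rose by 0.92 in KO tumours against WT tumours (SE 0.23, edgeR adjusted p = 0.028). Without KO tumour 2 that difference was 0.69 and no longer called (adjusted p = 0.13). The call was also lost with the compared groups only and without KO tumour 3, WT tumour 1 or WT tumour 3.

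Ech1, a dienoyl-CoA isomerase, had 121.5, 205.3 and 146.6 CPM in KO tumours, 91.4, 108.9 and 100.9 CPM in WT tumours, 201.5 and 261.7 CPM in KO livers, and 192.4 and 255.9 CPM in WT livers. It fell by 1.16 in WT tumours against WT livers (SE 0.25, edgeR adjusted p = 0.0084; 0.092 without WT liver 2). Eci1, an enoyl-CoA isomerase, had 59.9, 110.7 and 54.5 CPM in KO tumours, 47.9, 49.1 and 33.4 CPM in WT tumours, 107.8 and 88.1 CPM in KO livers, and 87.6 and 88.9 CPM in WT livers. It fell by 1.02 in WT tumours against WT livers (SE 0.30, edgeR adjusted p = 0.047), and the call was lost under 9 of 17 alternatives, among them leaving out either WT liver, any WT tumour, KO tumour 1 or KO tumour 3. Eci2 and the peroxisomal reductase Decr2 were called in no comparison, with log2 changes of -0.47 and -0.13 in WT tumours against WT livers.

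The electron transfer flavoprotein carries electrons from the dehydrogenases to its oxidoreductase, Etfdh, which hands them to ubiquinone. Etfdh had 37.5, 63.3 and 43.6 CPM in KO tumours, 27.8, 14.4 and 19.9 CPM in WT tumours, 54.4 and 51.9 CPM in KO livers, and 57.2 and 46.9 CPM in WT livers. All WT tumours were below all other libraries. Etfdh fell by 1.33 in WT tumours against WT livers (SE 0.31, edgeR adjusted p = 0.013), a call lost with library totals alone and without WT liver 1. It rose by 1.21 in KO tumours against WT tumours (SE 0.28, edgeR adjusted p = 0.021). That second call was lost with library totals alone and without KO tumour 2 (0.97, adjusted p = 0.12), KO tumour 3, WT tumour 2 or WT tumour 3. The flavoprotein's own subunits, Etfa and Etfb, were not called, with log2 changes of -0.66 and -0.34 in WT tumours against WT livers and 0.18 and 0.14 in KO tumours against WT tumours.

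Acyl-CoA thioesterases release free fatty acids and CoA, and Acot1, the cytosolic form, showed the largest called fold change among the 38 genes. It had 6.63, 15.0 and 13.6 CPM in KO tumours, 1.25, 2.33 and 3.72 CPM in WT tumours, 33.1 and 33.9 CPM in KO livers, and 13.4 and 29.6 CPM in WT livers. The KO tumours lay above the WT tumours and overlapped the range of the WT livers. Acot1 fell by 3.15 in WT tumours against WT livers (SE 0.53, edgeR adjusted p = 0.0014) and rose by 2.27 in KO tumours against WT tumours (SE 0.49, adjusted p = 0.013). The second call was lost with the compared groups only and without KO tumour 2 (2.06, adjusted p = 0.058), KO tumour 3 or WT tumour 1. Acot2 is a close paralog that may share reads with Acot1. With their counts summed, the WT difference was -2.14 (SE 0.51, adjusted p = 0.016) and the difference between tumours was 1.42 and not called (SE 0.47, adjusted p = 0.13). Acot2, Acot3, Acot4 and Acot12 were called in no comparison.

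Bdh1, the mitochondrial enzyme that converts acetoacetate and hydroxybutyrate into each other, went the other way from the oxidation genes. It had 202.9, 242.0 and 221.2 CPM in KO tumours, 369.0, 403.2 and 348.0 CPM in WT tumours, 212.4 and 237.5 CPM in KO livers, and 197.2 and 195.3 CPM in WT livers. All WT tumours were above all other libraries, and the KO tumours overlapped the KO livers. Bdh1 rose by 0.93 in WT tumours against WT livers (SE 0.21, edgeR adjusted p = 0.010; lost without either WT liver, up to 0.084). It fell by 0.75 in KO tumours against WT tumours (SE 0.18, edgeR adjusted p = 0.025). That call was lost with the compared groups only and without WT tumour 1, 2 or 3, KO tumour 1 or KO tumour 3, with adjusted p up to 0.097.

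Vnn1 encodes a pantetheinase that recycles part of coenzyme A and is a PPARA target in mouse liver. It had 11.3, 21.0 and 16.4 CPM in KO tumours, 23.3, 60 and 32.3 CPM in WT tumours, 15.6 and 32.4 CPM in KO livers, and 7.23 and 10.1 CPM in WT livers. Both WT livers were below every other library. Vnn1 rose by 2.15 in WT tumours against WT livers (SE 0.49, edgeR adjusted p = 0.011; lost without WT liver 1 or WT tumour 2, up to 0.086). Its difference of KO from WT tumours, -1.25, was not called (SE 0.40, adjusted p = 0.11).

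The receptor gene itself was not called in any comparison. Ppara had 89.95, 120.7 and 124.7 CPM in KO tumours, 89.2, 192.4 and 124.1 CPM in WT tumours, 132.8 and 110.4 CPM in KO livers, and 169.8 and 93.6 CPM in WT livers. The groups overlapped throughout. Its log2 change was 0.04 in WT tumours against WT livers (SE 0.32, edgeR adjusted p = 0.98) and -0.27 in KO tumours against WT tumours (SE 0.29, adjusted p = 0.79). Pdk4, a PPARA target that slows glucose oxidation, was read at 4.98 CPM or less in the tumours and 5.78 CPM or less in the livers.

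**Figure D3:**
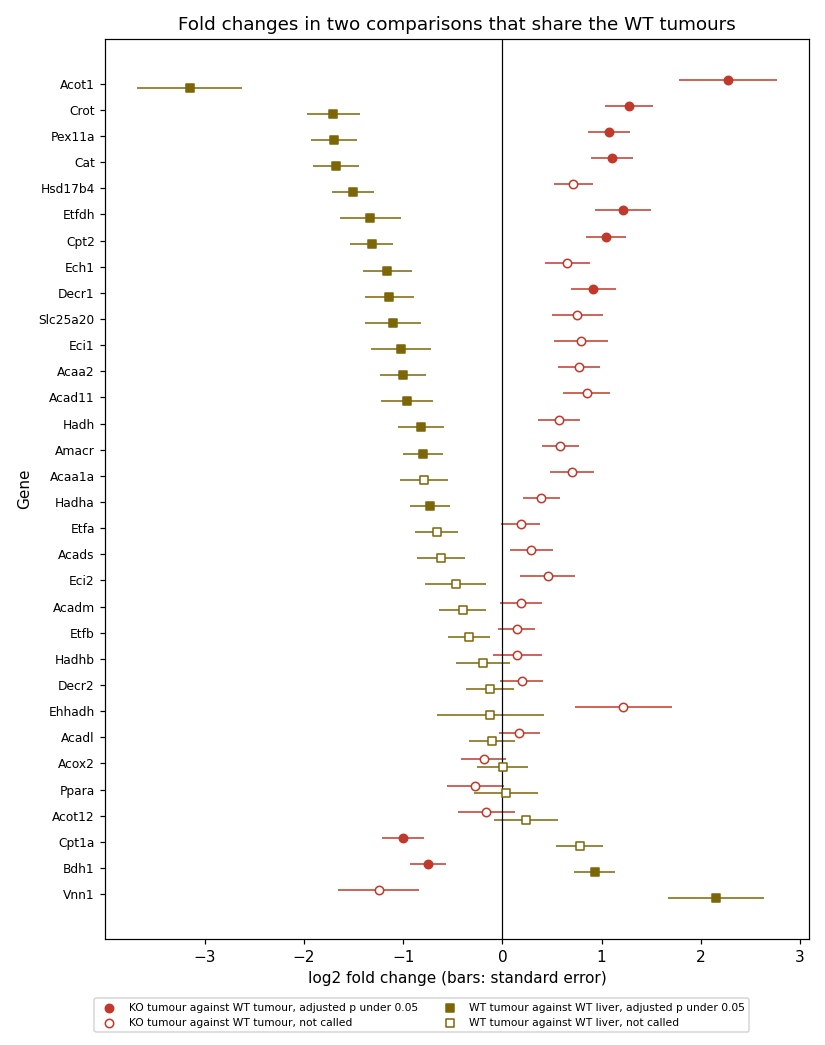
Log2 fold changes with standard errors for the 32 genes with a mean of at least 10 CPM, in KO tumours against WT tumours (circles) and WT tumours against WT livers (squares), filled where the edgeR adjusted p was under 0.05. The comparisons share the WT tumours; Cat, for example, was at 1.11 and -1.67.

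In KO mice most of the 38 genes were lower in tumour than in liver on average, but none passed the test. None of the 38 genes was called in KO tumours against KO livers (edgeR), where 0% of all genes were called lower and 0.0759% higher. At an unadjusted p under 0.05, 7 were lower and 0 higher, beside 471 and 1049 of all 15811 genes. DESeq2 called 1 lower, Amacr, beside 42 lower and 385 higher of all genes. The log2 fold change was negative in 33 of the 38 genes, with a median of -0.40, against 0.06 over all genes. Groups did not overlap on the lower side in 15 of 38 genes, where 12.4% of all genes did so. Without KO tumour 2, the change was negative in 35 of 38 genes with a median of -0.55, and again none was called, while 0.083% of all genes were called lower and 1.21% higher. Cat, at -0.53 with all KO tumours (SE 0.23, adjusted p = 0.48), was at -0.77 without KO tumour 2 (SE 0.20, adjusted p = 0.097).

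**Figure D4:**
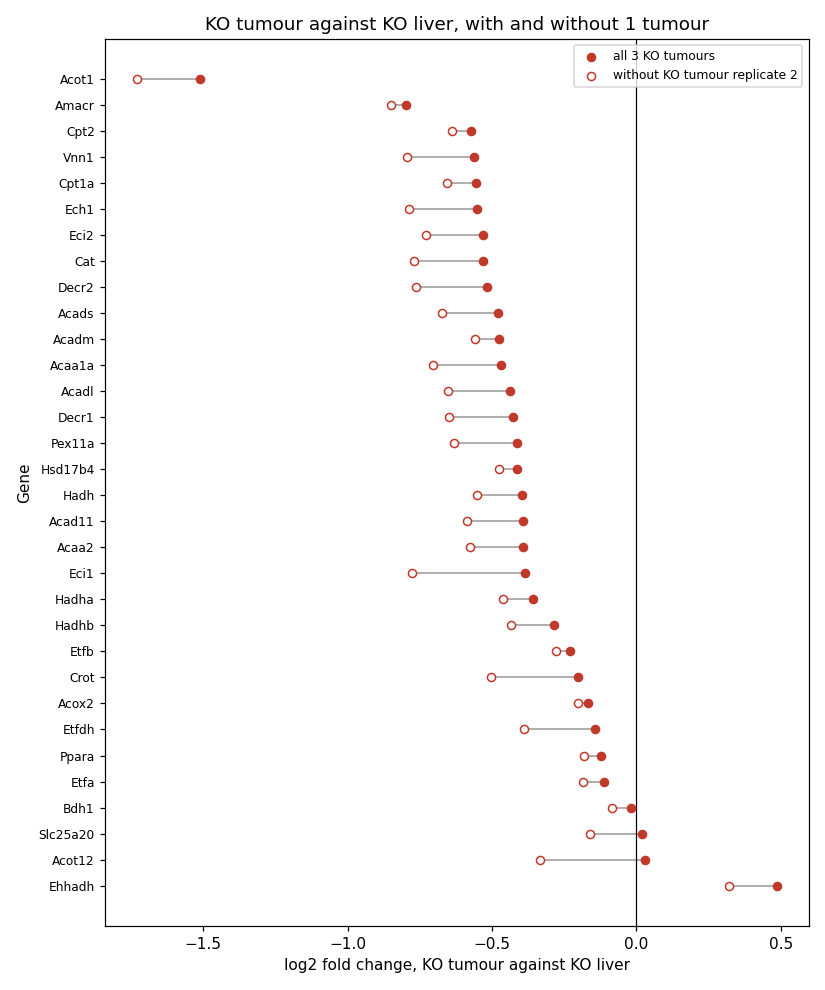
Log2 fold changes of KO tumours against KO livers for the 32 genes with a mean of at least 10 CPM, with all 3 KO tumours (filled) and without KO tumour 2 (open). Cat was at -0.53 with all 3 and at -0.77 without KO tumour 2.

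A direct test asked whether the tumour-to-liver difference depended on genotype, as an interaction term in edgeR. Of the 38 genes, 1 was called lower and 0 higher, where 0.367% and 1.22% of all genes were. At an unadjusted p under 0.05, 3 were lower and 8 higher, beside 821 and 1185 of all 15811 genes. DESeq2 called 3 lower and 4 higher, beside 263 and 469 of all genes. The called gene was Vnn1, whose tumour-to-liver difference was -0.56 in KO mice, against 2.15 in WT mice, a difference of -2.71 (SE 0.64, adjusted p = 0.049). This call was lost under 9 of 16 alternatives, among them leaving out either WT liver, KO liver 2, WT tumour 2 or 3, or any KO tumour, with adjusted p up to 0.18. Without KO tumour 2, Cpt1a was called instead, at -1.43 (SE 0.33, adjusted p = 0.048), where 0.313% of all genes were called lower and 1.09% higher, against -1.33 and not called with all libraries (SE 0.33, adjusted p = 0.061). Without KO tumour 1, 2 genes were called higher, Pex11a (1.45, adjusted p = 0.031) and Crot (1.64, adjusted p = 0.048). With all libraries, the interaction was 1.50 for Crot (SE 0.38, adjusted p = 0.068), 1.29 for Pex11a (SE 0.33, adjusted p = 0.074) and 1.14 for Cat (SE 0.33, adjusted p = 0.13).

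In livers of water-treated mice, none of the 38 genes was called between KO and WT (edgeR), where 0.00632% of all genes were called lower and 0% higher. At an unadjusted p under 0.05, 3 were higher and 0 lower, beside 536 and 615 of all 15811 genes. DESeq2 called 0, beside 89 higher and 113 lower of all genes. The median log2 fold change was 0.20, against 0.00 over all genes. The groups did not overlap in 13 of 38 genes on the higher side and in 4 on the lower side, where 15.5% of all genes did so on each side. Amacr, for example, differed by 0.58 (SE 0.23, edgeR adjusted p = 0.64) and Vnn1 by 1.47 (SE 0.50, adjusted p = 0.60).

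A further list of 62 genes of fatty acid uptake and activation, oxidation, ketone metabolism and PPARA response held 60 tested genes. In WT tumours against WT livers 20 of them fell and 6 rose (Acsl4, Acsl5, Cd36, Fgf21, Abcd2 and Bdh2), with a median log2 change of -0.77, where 4.7% of all genes were called lower and 3.64% higher. In KO tumours against WT tumours 14 rose and 3 fell (Acsl4, Acsl5 and Abcd2), with a median of 0.56, where 3.25% of all genes were called higher and 1.27% lower. Without KO tumour 2, 10 rose and 2 fell (Acsl4 and Acsl5), with a median of 0.43, beside 2.2% and 0.728% of all genes. Pecr, a peroxisomal enoyl-CoA reductase of chain elongation, averaged 553 ± 180 CPM in KO tumours, 157 ± 9.78 CPM in WT tumours (SD, n = 3 each), 621 ± 63.6 CPM in KO livers and 636 ± 16.9 CPM in WT livers (SD, n = 2 each). It fell by 2.02 in WT tumours against WT livers (SE 0.25, edgeR adjusted p = 0.00011) and rose by 1.81 in KO tumours against WT tumours (SE 0.23, adjusted p = 0.00016), and by 1.52 without KO tumour 2 (adjusted p = 0.00023).

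Hacl1, the lyase of peroxisomal alpha-oxidation, averaged 125 ± 31.1 CPM in KO tumours, 21.5 ± 11.1 CPM in WT tumours, 152 ± 21.6 CPM in KO livers and 172 ± 75.0 CPM in WT livers. Its log2 change was -2.999 in WT tumours against WT livers (edgeR adjusted p = 0.00013) and 2.53 in KO tumours against WT tumours (adjusted p = 0.00038), and the second was 2.31 without KO tumour 2 (adjusted p = 0.0019). Slc27a5, which activates bile acids and very long chains, changed by -1.80 (edgeR adjusted p = 0.00015) and 1.46 (adjusted p = 0.00057) in these comparisons, and the second was 1.25 without KO tumour 2 (adjusted p = 0.0015). The interaction term was called for Hacl1 and Pecr alone of these 60 genes, both higher (2 of 60, beside 1.22% of all genes), and again for these 2 without KO tumour 2 (2.49, adjusted p = 0.035, and 1.56, adjusted p = 0.010).

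None of these 60 genes was called by edgeR between KO tumours and KO livers or between KO and WT livers. Among all 15811 genes, edgeR called 12 higher and 0 lower in the first comparison, and 0 and 1 in the second. At an unadjusted p under 0.05 the first held 2 higher and 4 lower of the 60, beside 1049 and 471 of all genes. The second held 2 and 3, beside 536 and 615. DESeq2 called 1 and 1 in the first, beside 385 and 42, and 1 and 2 in the second, beside 89 and 113. Without KO tumour 2, edgeR called 1 of the 60 higher in the first, Fgf21, beside 1.21% of all genes. Rxra, which encodes a partner of PPARA, and Mlycd, which removes the CPT1 inhibitor malonyl-CoA, changed by -0.61 and -0.81 in KO tumours against KO livers (edgeR adjusted p = 0.28 each). Angptl4, a PPARA-induced inhibitor of lipoprotein lipase, and Bdh2, a cytosolic dehydrogenase, differed by -1.91 and 1.27 between KO and WT livers (adjusted p = 0.43 each). In WT tumours against WT livers, by contrast, edgeR called Rxra and Angptl4 lower, among the 20 genes that fell there. With 1 library left out, their changes ran from -0.81 to -0.74 for Rxra and from -2.18 to -0.90 for Angptl4. Each of these 2 calls was lost in 3 of 10 such fits. Fgf21, a hormone gene driven by PPARA, was read at 0 counts in both KO livers. It averaged 2.07 ± 0.374 CPM in KO tumours and 12.9 ± 6.72 CPM in WT tumours (SD, n = 3 each), and had 0.757 and 1.13 CPM in WT livers.

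Genes for making peroxisomes were examined as a further list. Of 15, none was called in WT tumours against WT livers (edgeR; 0 higher and 3 lower at an unadjusted p under 0.05, 0 and 2 in DESeq2), with a median of -0.38. In that comparison edgeR called 4.7% of all genes lower and 3.64% higher. At an unadjusted p under 0.05, 1696 of all 15811 genes were higher and 1692 lower there, and DESeq2 called 1265 and 1103. In KO tumours against WT tumours 1 of 15 rose, where 3.25% of all genes were called higher. It was Pex16, which inserts peroxisomal membrane proteins (1.16, SE 0.27, edgeR adjusted p = 0.022). Pex16 was not called without KO tumour 2 (0.79, adjusted p = 0.13). Of 17 genes of the tricarboxylic acid cycle, 4 fell in WT tumours against WT livers (Idh3a, Dlst, Sdhb and Fh1), with a median of -0.69, beside the same 4.7% of all genes. In KO tumours against WT tumours 2 of the 17 rose (Cs and Sdhd), with a median of 0.46, beside 3.25% of all genes. Cs, citrate synthase, averaged 69.7 ± 3.68 CPM in KO tumours and 40.2 ± 6.81 CPM in WT tumours (SD, n = 3 each; 0.79, edgeR adjusted p = 0.039). Neither Cs nor Sdhd was called without KO tumour 2, with 0.80 for Cs (adjusted p = 0.089) and 1.06 for Sdhd (adjusted p = 0.056). That left 0 of 15 and 0 of 17 genes called, beside 2.2% of all genes called higher and 0.728% lower. None of these 2 lists' genes was called by edgeR in KO tumours against KO livers or in KO livers against WT livers. Among all 15811 genes, edgeR called 12 higher and 0 lower in the first comparison, and 0 and 1 in the second. At an unadjusted p under 0.05 there were 3 and 1 peroxisome genes and 2 and 1 cycle genes, beside 1520 and 1151 of all genes. DESeq2 called 0 of either list, beside 385 higher and 42 lower, and 89 and 113, of all genes.

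Other features of the libraries moved with these differences, and their part in them was not tested. The summed level of 11 hepatocyte markers was 35360 to 44270 CPM in KO tumours, 68560 to 87360 CPM in WT tumours, 45510 to 49150 CPM in KO livers and 42070 to 43210 CPM in WT livers, and no marker was at 0 in any group. That sum ran against most of its list, since 9 of the 11 had negative log2 changes in WT tumours against WT livers (median -0.87) and 9 had positive ones in KO tumours against WT tumours (median 0.53). The 2 on the other side each time were Alb and Apoa1, which encode abundant plasma proteins. Alb averaged 23270 CPM in KO tumours, 54560 CPM in WT tumours, 27120 CPM in KO livers and 23630 CPM in WT livers. Of the 11, 3 rose, among them Ass1 and Cyp2e1, and 2 fell (Alb and Apoa1) in KO tumours against WT tumours, and the same 5 were called without KO tumour 2. In WT tumours against WT livers 5 fell, among them Cps1, Ass1 and Cyp2e1, and 2 rose (Alb and Apoa1). Cyp2e1, an alcohol-metabolising enzyme of pericentral hepatocytes, differed by 4.04 between KO and WT tumours (edgeR adjusted p = 3.3e-05), and by 3.73 without KO tumour 2 (adjusted p = 0.00012). The share of counts from mitochondrial genes was 6.45% to 8.44% in KO tumours, 4.03% to 5.10% in WT tumours, 7.21% to 7.72% in KO livers and 7.27% to 7.57% in WT livers. The Mup genes, which encode secreted urinary proteins, took 5.38% to 8.51% of counts in KO tumours, 0.137% to 0.613% in WT tumours, 8.46% to 10.9% in KO livers and 11.7% to 12.4% in WT livers.

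Markers of other cell types were summed in the same way. The 12 macrophage markers summed to 665 to 1025 CPM in KO tumours, 708 to 1088 CPM in WT tumours, 485 to 768 CPM in KO livers and 483 to 508 CPM in WT livers. Of the 12, 9 had positive log2 changes in WT tumours against WT livers (median 0.51), and Cd5l and Lyz2 rose there (edgeR). In KO tumours against WT tumours Marco rose (edgeR), while 7 of the 12 had negative changes (median -0.16). The 7 cholangiocyte markers summed to 52.1 to 282 CPM in KO tumours, 266 to 505 CPM in WT tumours, 59.6 to 75.9 CPM in KO livers and 89.8 to 120 CPM in WT livers. Spp1 and Tspan8 rose in WT tumours against WT livers, and Sox9 fell in KO tumours against WT tumours. The 11 stellate and matrix markers summed to 366 to 592 CPM in KO tumours, 330 to 719 CPM in WT tumours, 416 to 466 CPM in KO livers and 469 to 528 CPM in WT livers. Of the 11, 7 had positive log2 changes in WT tumours against WT livers and 4 negative ones (median 0.71). There Dcn and Ecm1 fell in edgeR, while DESeq2 called 4 higher and 2 lower. In KO tumours against WT tumours 5 changes were positive and 6 negative (median -0.14), and Acta2 and Reln fell in edgeR.

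The 13 lymphocyte markers summed to 52.9 to 101 CPM in KO tumours, 45.4 to 149.9 CPM in WT tumours, 39.7 to 41.4 CPM in KO livers and 16.3 to 37.2 CPM in WT livers, and Ccl5 rose in WT tumours against WT livers. The 5 neutrophil markers summed to 17.8 to 197 CPM in KO tumours, lowest in KO tumour 2, 55.1 to 214 CPM in WT tumours, 11.3 to 11.7 CPM in KO livers and 21.9 to 22.6 CPM in WT livers. Over 3 red blood cell markers the sum was 2896 to 4137 CPM in KO tumours, 2167 to 4179 CPM in WT tumours, 2212 to 2653 CPM in KO livers and 1649 to 1798 CPM in WT livers, and Hbb-bs rose in WT tumours against WT livers. Over 8 endothelial markers it was 305 to 363 CPM in KO tumours, 313 to 399 CPM in WT tumours, 308 to 358 CPM in KO livers and 299.5 to 375 CPM in WT livers. The 12 markers of fat, muscle and pancreas summed to 76.6 to 125 CPM in KO tumours, 92.1 to 229 CPM in WT tumours, 94.2 to 96.7 CPM in KO livers and 80.1 to 105 CPM in WT livers. Lep, Cpa1, Prss2 and Pnlip of that list were at 0 in both tumour groups. Cfd rose in KO tumours against WT tumours, while 4 of the 5 tested genes of that list had negative log2 changes (median -0.71). The part of these cell types in the differences above was not tested.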

How the data were processed

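Total RNA (50 ng) was made into strand-specific QuantSeq 3' libraries, per the labels' protocols. The authors deposited raw read counts by gene, as whole numbers. Per the submitters' processing notes, BWA and featureCounts were used with mm10 (versions, annotation release, strand setting and shared-read handling: not given in the sources used here). Reads of paralogs and of genes overlapping at the 3' end may therefore be split or shared: of the 38 genes, 4 (Acadvl, Acaa1b, Hadha and Etfb) have another gene's exon within the last 500 bases in GENCODE M21.

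Symbols matched 38872 of 39056 identifiers. One edgeR 4.0.16 model (R 4.3.3) with a term per group was fitted to all 10 libraries after filterByExpr (15811 genes) and TMM scaling, with Benjamini-Hochberg adjustment over all tested genes and calls at an adjusted p under 0.05. Libraries are called biological replicates in the series' design. No replicate pair agreed within sampling noise (chi-square per degree of freedom 39.8 to 94.9). The precision of levels is limited by the spread between 2 or 3 libraries. The procedure was tested on simulated data. Alternatives were RLE or no scaling factors, other filters, DESeq2 1.42.0, compared groups only, a replicate block, summed paralogs and leaving out each library. The genes, lists and tests were chosen with earlier results of these data known. All called genes and up to 2 others per role were given in full, and of other lists up to 3 genes per comparison with the smallest p.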

Additional observations from a re-analysis of the deposited data

Results flagged for a closer look

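In 6 of the genes named here the tumour-to-liver difference itself differed between KO and WT mice by the interaction term of the edgeR fit, which called 193 (1.22%) of all genes higher and 58 (0.367%) lower. Among the 38 genes the interaction was -2.71 for Vnn1 (SE 0.64, adjusted p = 0.049), a call lost under 9 of 16 alternatives. Among the further pathway genes it was 2.71 for Hacl1 (SE 0.53, adjusted p = 0.015) and 1.85 for Pecr (SE 0.35, adjusted p = 0.013), all on the log2 scale. Leaving out 1 library at a time gave 2.18 to 3.22 for Hacl1, lost without KO liver 2 (adjusted p = 0.064), and 1.56 to 2.02 for Pecr, lost without KO liver 1 (adjusted p = 0.072). Among the hepatocyte markers it was 3.78 for Cyp2e1 (adjusted p = 0.0043; 3.47 to 4.46 with 1 library left out, called each time), -1.43 for Alb (adjusted p = 0.027; lost in 7 of 10 such fits) and -1.79 for Apoa1 (adjusted p = 0.0095; lost without KO liver 1). A positive value means more tumour over liver in KO than in WT mice, and a negative one less. Groups of 2 or 3 libraries were too small for a test of single outlying samples.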

How the results depend on the processing

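Among the called results, Cpt2, Hsd17b4, Acot1, Pex11a, Crot and Cat in WT tumours against WT livers and Cpt1a, Cpt2, Pex11a, Crot and Cat in KO tumours against WT tumours kept their calls under every alternative run. The number of the 38 genes called lower in WT tumours against WT livers was 8 with library totals alone. The number higher in KO tumours against WT tumours was 12 in DESeq2, and the number lower was 1 with the compared groups only. In KO tumours against KO livers DESeq2 called 1 lower. The interaction gave 2 lower with library totals, 2 higher and 2 lower with no filter, 0 lower with at least 1 CPM in 2 libraries, and 4 higher and 3 lower in DESeq2; the causes were not tested. Leaving out 1 library at a time, WT tumours against WT livers gave 0 to 3 higher and 7 to 17 lower, KO tumours against WT tumours 4 to 10 higher and 1 to 2 lower, the interaction 0 to 2 higher and 0 to 1 lower, and the remaining comparisons 0 to 0. Among values at least as large as their standard error, signs turned in uncalled genes, with these ranges when 1 library was left out: Acot4 without WT liver 2 (-3.37 to 0.39, at 0.39, in KO against WT livers; -0.20 to 3.56, at -0.20, in the interaction), Hadhb and Vnn1 without KO liver 2 (-0.53 to 0.018 and -0.99 to 0.060 in KO tumours against KO livers), Acot2 without KO liver 2 (-0.70 to 3.78 in KO against WT livers) and Acaa1b without KO tumour 2 (-0.17 to 2.04 in KO against WT tumours). Without KO liver 1, Acot4 was at 0 counts in KO livers, so 2 values were not given. None of these values turned under another scaling.

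Whether the replicate numbers pair the libraries is not known. Of 13 same-numbered pairs, 0 had deviations from their group means correlated above 0.1 (-0.00615 to 0.0238), although 9 of 10 libraries correlated best with one of the same number. In a group of 2 the deviations mirror each other, so this check cannot exclude pairing. With the replicate block, 12 genes were called lower and 2 higher in WT tumours against WT livers, without Hadha, Hadh, Amacr and Eci1, and 7 higher and 3 lower in KO tumours against WT tumours.

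Over all genes, the counts higher and lower were 575 and 743 in WT tumours against WT livers, 920 and 496 with library totals, 925 and 965 with no filter, and 1265 and 1103 in DESeq2. In KO tumours against KO livers they were 12 and 0, 22 and 0 with library totals, 342 and 44 with no filter, 385 and 42 in DESeq2, and 0 and 0 with the compared groups only. KO against WT livers gave 0 and 1, 39 and 72 with no filter, and 89 and 113 in DESeq2. KO against WT tumours gave 514 and 201, 746 and 435 with no filter, and 823 and 393 in DESeq2. The interaction gave 193 and 58, 432 and 203 with no filter, and 469 and 263 in DESeq2.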
